A study of Mus musculus with 12 samples.

Results

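Id proteins and E proteins are helix-loop-helix transcription regulators, and 6 of their genes were followed here: Id1, Id2 and Id3, which encode inhibitors, and Tcf3, Tcf4 and Tcf12, which encode the E proteins. They were chosen by name, with the fall of Id3 after lipopolysaccharide (LPS) in knockout cells already known, so that fall is given as a description. The 6 genes had 13 of the 28898 probe sets that carry a single gene symbol, out of 17097 genes, and every one of the 13 is reported. Dendritic cells (DCs) were taken by positive selection from single spleens of C57BL/6 male mice aged 10 weeks, and RNA was measured on 12 Affymetrix arrays. The 4 groups of 3 arrays were miR-142 knockout (KO) with LPS, wild-type (WT) littermates with LPS, KO with no stimulation and WT with no stimulation. The labels give no promoter, Cre or other allele for the KO and name nothing else that the groups share, and the sources used here give neither a dose nor a duration of LPS. DCs are named in the cell type fields, whereas the free-text descriptions name T cells.

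E proteins bind short DNA motifs called E-boxes as dimers and switch on genes of lymphocyte and plasmacytoid DC development. Id proteins have the dimerisation helices but no DNA-binding region, so they hold E proteins in dimers that cannot bind. In DCs the balance is known for setting lineage: Id2 accompanies conventional DC development, and the E protein E2-2, made from Tcf4, is required for plasmacytoid DCs. Id genes are also well-known targets of bone morphogenetic protein (BMP) and transforming growth factor-beta (TGF-beta) signalling through SMAD proteins. The microRNA miR-142 is made in blood cells and gives a mature strand from each arm of its hairpin. Its strands are shown first because the deleted gene defines the KO group; the seed, bases 2 to 8, is in capitals, and the sequences are those of RefSeq.

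mmu-miR-142a-3p: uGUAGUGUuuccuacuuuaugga
mmu-miR-142a-5p: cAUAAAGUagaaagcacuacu

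In GRCm38.p6 the 3p strand lies at chr11:87756903-87756925 and the 5p strand at chr11:87756867-87756887, both on the plus strand. The arrays had 0 single-symbol probe sets for the miR-142 gene, so the level of the deleted gene was not analysed here.

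Id3, the member past the threshold between genotypes, and Id2, the inhibitor tied to conventional DCs, are shown with their promoter windows, 250 bases before to 50 bases after the annotated start (RefSeq, GRCm38.p6). Id3 is at chr4:136143572-136143871 on the plus strand, and Id2 is at chr12:25096043-25096342 on the minus strand. Capitals mark the letters TATAA in the Id3 window and an E-box (CANNTG) in the Id2 window.

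Id3 promoter: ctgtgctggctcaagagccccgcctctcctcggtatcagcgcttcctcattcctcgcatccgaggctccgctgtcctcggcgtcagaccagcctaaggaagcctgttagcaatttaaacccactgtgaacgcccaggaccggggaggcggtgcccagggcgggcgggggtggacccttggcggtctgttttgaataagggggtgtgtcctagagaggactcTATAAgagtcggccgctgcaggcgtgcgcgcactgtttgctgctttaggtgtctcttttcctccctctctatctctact
Id2 promoter: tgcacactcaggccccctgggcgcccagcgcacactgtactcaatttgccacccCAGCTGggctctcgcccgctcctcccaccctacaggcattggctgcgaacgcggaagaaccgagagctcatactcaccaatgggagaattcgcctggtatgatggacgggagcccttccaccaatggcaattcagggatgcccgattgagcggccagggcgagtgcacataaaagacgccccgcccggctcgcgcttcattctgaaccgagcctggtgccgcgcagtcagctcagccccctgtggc

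The Id3 window held TATAA at position −29 from the start and 0 E-boxes, whereas the Id2 window held 1 E-box, at position −196, and no match to the TATAA letters. Both strands were searched. A GC-rich motif of SMAD-responsive elements, GGCGCC, was also searched and overlaps neither of the others here; the Id2 window had 1 match and the Id3 window 0. Of 32851 promoter windows of 300 bases, the E-box letters were found in 72.3%, the TATAA letters in 24.9% and the GC-rich motif in 11.9%. The Tcf3 window held 1 E-box and the 3 windows of Tcf12 held 1, 2 and 1. A match describes letters only. RefSeq windows were searched for 4 of the 6 genes, and those of Id1 and Tcf4 were not analysed here.

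Array values are log2 signals, and a level is comparable between groups for one probe set but not between probe sets. Array 2 of the KO group with LPS stood apart, with correlations to the other arrays of 0.935 to 0.958 against 0.966 to 0.991 among the rest, and a Gapdh gap between 3' and middle probe sets of 3.04 (log2), against 1.53 to 1.86 elsewhere. A member difference printed below is also given without this array where its sign turned or its size changed over 1.5 times. All 9 measured conventional DC markers lay above the median gene, with summed linear signals of 1991 to 2952 in KO with LPS against 2922 to 3262 in WT with LPS, and 2865 to 3027 in unstimulated KO against 2866 to 3105 in unstimulated WT. The 1991 belonged to KO LPS array 2. In the averaged comparison 1 of the 9 markers was lower in KO past the threshold and 0 were higher, with 3 at an unadjusted limma p under 0.05. The list median was −0.22 averaged, −0.31 after LPS and −0.05 unstimulated. In bulk RNA of this kind, fewer cells of a type and less RNA per cell cannot be told apart.

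**Figure D1:**
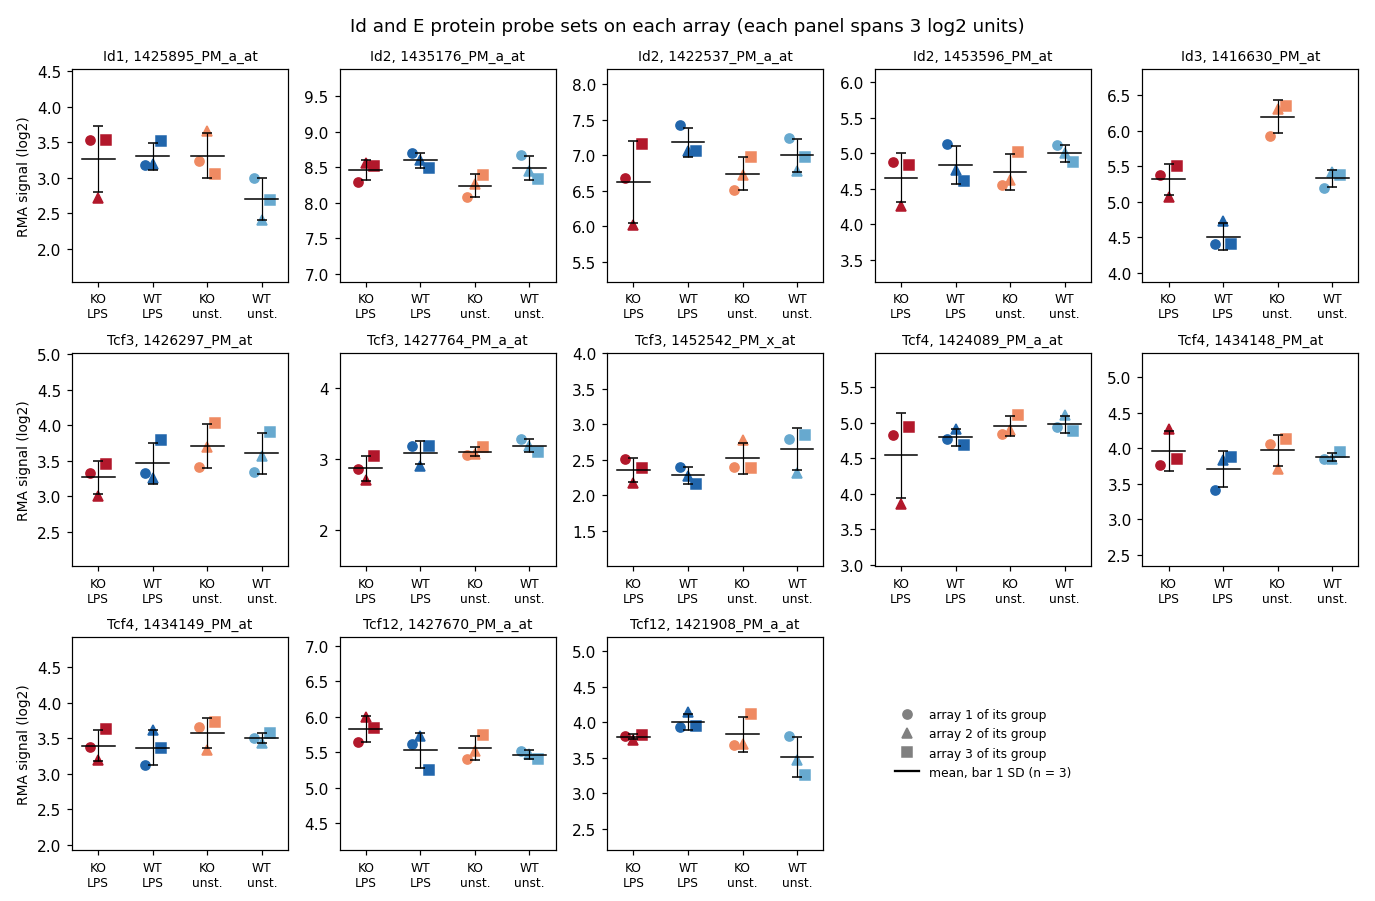
Log2 signal of the 13 probe sets on all 12 arrays, 1 panel per probe set and 1 point per array, with the mean and SD of each group of 3 arrays; each panel spans 3 log2 units. Id3 is the gene whose KO arrays lie above the WT arrays both with LPS and unstimulated; the low Tcf4 point at 3.86 (1424089_PM_a_at) is KO LPS array 2.

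Id3 was the member that differed between genotypes: its transcript was 1.79-fold higher in KO than in WT DCs averaged over both stimulations. Its 3 LPS arrays lay below its 3 unstimulated arrays in both genotypes, a fall that was known beforehand in KO. The other members gave no difference past the threshold in any comparison in which they were tested. Id3 encodes an inhibitor of E proteins that is known in lymphocytes as a gene switched on by receptor and cytokine signals. Its 1 probe set (1416630_PM_at) read 5.38, 5.07 and 5.50 on the KO arrays with LPS, against 4.40, 4.73 and 4.40 on the WT arrays with LPS. It read 5.93, 6.31 and 6.35 on the unstimulated KO arrays, against 5.20, 5.42 and 5.38 on the unstimulated WT arrays. Within each stimulation the lowest KO array was above the highest WT array.

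Averaged over both stimulations the Id3 difference was 0.84 ± 0.11 (log2, KO minus WT, ± SE, 6 arrays per genotype; 95% interval 0.60 to 1.07, which is 1.52-fold to 2.10-fold), with a limma adjusted p = 0.00243. By p it ranked 46 of the 28898 probe sets. Of the 13 member probe sets 1, that of Id3, passed an adjusted p of 0.05 in this comparison, where 2.12% of all single-symbol probe sets passed, 1.35% higher and 0.775% lower in KO. The call held in every alternative run, with adjusted p from 0.000457 to 0.0103 and values from 0.79 to 0.90. Levels of the gene were also set apart within each stimulation, at 0.81 after LPS and 0.87 unstimulated. These differences share arrays with the comparison that picked Id3 and carry no test.

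Markers of other cells moved with genotype on the same arrays. KO LPS array 2 gave the lowest KO LPS sum for plasma cell (199), monocyte (462), B cell (326) and T cell (72.2) markers. It gave the highest for neutrophil (6863) and erythroid (1745) markers. Summed neutrophil markers were 2289 to 6863 in KO with LPS against 216 to 937 in WT with LPS, and 2417 to 8059 in unstimulated KO against 235 to 1016 in unstimulated WT, with 10 of 13 markers past the threshold in the averaged comparison. Summed natural killer (NK) cell markers were 1123 to 1302 in KO with LPS against 269 to 407 in WT with LPS, and 1119 to 1296 in unstimulated KO against 290 to 395 in unstimulated WT, with 8 of 12 past the threshold. The neutrophil list had 1 of its measured markers below the median gene (Elane), and the NK list also 1 (Ncr1). Summed platelet markers were 161 to 680 in KO with LPS against 104 to 153 in WT with LPS, and 184 to 506 in unstimulated KO against 96.5 to 145 in unstimulated WT, with 0 of 9 past the threshold by limma and 6 at an unadjusted p under 0.05. Summed plasma cell markers were lower, at 199 to 369 in KO with LPS against 447 to 641 in WT with LPS, and 207 to 232 in unstimulated KO against 389 to 558 in unstimulated WT, with 1 of 6 past the threshold. Summed erythroid markers overlapped, at 1337 to 1745 in KO with LPS against 455 to 1629 in WT with LPS and 1227 to 2243 in unstimulated KO against 473 to 1605 in unstimulated WT, with 1 of 8 past the threshold and a list median of 0.80. Summed monocyte markers overlapped too, at 462 to 958 in KO with LPS against 686 to 730 in WT with LPS and 720 to 838 in unstimulated KO against 705 to 737 in unstimulated WT, with 2 of 9 past the threshold. The part of these cells in the Id3 difference was not tested. Summed B cell markers overlapped between the genotypes, at 326 to 651 in KO with LPS against 444 to 563 in WT with LPS and 428 to 672 in unstimulated KO against 462 to 572 in unstimulated WT, with 1 of 11 past the threshold. Summed T cell markers, of which 4 of 8 lay below the median gene (Cd3g, Cd5, Cd28 and Lef1), also overlapped, at 72.2 to 84.6 in KO with LPS against 76.0 to 103 in WT with LPS and 79.9 to 85.8 in unstimulated KO against 80.7 to 107 in unstimulated WT.

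With LPS, Id3 in WT cells was 0.565-fold of its unstimulated level, a difference of −0.82 ± 0.15 (log2, LPS minus unstimulated, 95% interval −1.15 to −0.50, n = 3 arrays each, limma adjusted p = 0.0712), which did not pass. Same-numbered arrays were taken as pairs within a genotype from the data alone. The labels state no pairing and give each sample its own mouse number. With the number as a random block the limma adjusted p was 0.0307, or 0.0470 as a fixed block. Both were past the threshold, and both rest on the inferred pairs. It was also past the threshold without KO LPS array 2 (adjusted p = 0.0194), although that array is not among those compared and enters only through the shared spread. Over all alternatives the adjusted p ran from 0.0194 to 0.433. Among the 14224 probe sets that were lower with LPS in WT, Id3 had the second lowest p (rank 2), in a comparison where 0.128% of all probe sets passed, all 37 of them higher.

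In KO cells the LPS arrays of Id3 lay below the unstimulated ones too, by −0.88 (log2, 0.543-fold). That is the difference by which the gene was chosen, so neither a test nor an interval is given. In that comparison 0.301% of all probe sets passed. By array number, the LPS minus unstimulated differences of Id3 were −0.55, −1.24 and −0.85 in KO and −0.80, −0.69 and −0.98 in WT. Every WT difference was negative. So was every KO difference, but the fall in KO was known when Id3 was chosen and adds no separate observation. The −1.24 of number 2 in KO involves the array that stood apart. The difference between the LPS effects in KO and in WT was −0.06 (95% interval −0.52 to 0.41), or 0.07 without KO LPS array 2, given as a description.

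**Figure D2:**
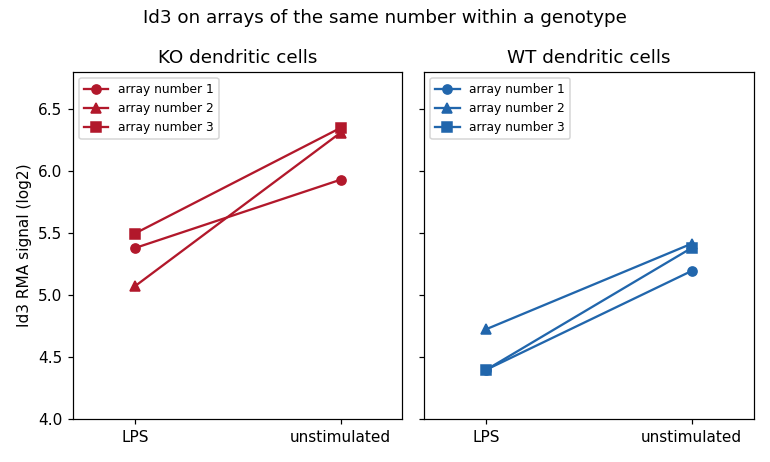
Log2 signal of Id3 on the LPS and the unstimulated array of each number, KO on the left and WT on the right, with a line joining the arrays of 1 number. Every line is lower at LPS, with differences of −0.55, −1.24 and −0.85 in KO and −0.80, −0.69 and −0.98 in WT, and at each end the KO points lie above the WT points. The fall in KO was known when Id3 was chosen.

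Id3 averaged 5.32 ± 0.22 in KO with LPS against 4.51 ± 0.19 in WT with LPS, and 6.20 ± 0.23 in unstimulated KO against 5.33 ± 0.12 in unstimulated WT (SD, n = 3 arrays each). Unstimulated KO was the highest group and WT with LPS the lowest. KO with LPS and unstimulated WT, the neighbours in the middle of the order, overlapped in their arrays and were not compared by a test.

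Id2, the inhibitor tied to conventional DC and innate lymphoid development, had no difference past the threshold with any of its 3 probe sets. The brightest (1435176_PM_a_at) read 8.30, 8.56 and 8.51 in KO with LPS against 8.70, 8.60 and 8.49 in WT with LPS, and 8.08, 8.26 and 8.39 in unstimulated KO against 8.67, 8.45 and 8.33 in unstimulated WT. The genotypes overlapped in both stimulations. The averaged difference was −0.19 ± 0.09 (log2, KO minus WT, 95% interval −0.38 to 0.00, limma adjusted p = 0.316).

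The other 2 Id2 probe sets also had negative averaged differences, −0.41 ± 0.17 for 1422537_PM_a_at (limma adjusted p = 0.264) and −0.22 ± 0.13 for 1453596_PM_at (adjusted p = 0.449). Without KO LPS array 2 these were −0.26 and −0.12. For 1422537_PM_a_at KO LPS array 2 read 6.02, against 6.69 and 7.16 on the other KO LPS arrays and 7.42, 7.07 and 7.06 on the WT LPS arrays. Its difference after LPS was −0.56 ± 0.24 (adjusted p = 0.331) with that array and −0.26 without it. After LPS in WT the 3 Id2 probe sets differed from unstimulated by −0.17 to 0.18, and the arrays overlapped in each. Macrophage markers, which include Spic, summed to 1460 to 1735 in KO with LPS against 1060 to 2177 in WT with LPS. Unstimulated they summed to 1638 to 2272 in KO against 1136 to 2425 in WT. The 1460 belonged to KO LPS array 2. In the averaged comparison 0 of 11 macrophage markers were past the threshold.

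Id1, a BMP-responsive inhibitor best known from endothelial and progenitor cells, was dim, with 1 probe set (1425895_PM_a_at) whose mean of 3.14 equalled that of the median gene. It read 3.53, 2.72 and 3.53 in KO with LPS against 3.18, 3.19 and 3.52 in WT with LPS, and 3.23, 3.66 and 3.05 in unstimulated KO against 3.00, 2.41 and 2.69 in unstimulated WT. Unstimulated WT was the low group: its arrays lay below those of unstimulated KO and those of WT with LPS, so both differences share the unstimulated WT arrays. The KO minus WT difference of Id1 was 0.61 ± 0.23 unstimulated (limma adjusted p = 0.467) and −0.04 ± 0.23 after LPS (adjusted p = 0.960), which turned to 0.23 without KO LPS array 2, the low array at 2.72. The LPS difference in WT was 0.60 ± 0.23 (adjusted p = 0.892), and the difference of the LPS effects, KO minus WT, was −0.65 ± 0.33 (adjusted p = 0.957), or −0.38 without that array. None of these passed.

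Tcf3 encodes the E proteins that are required for B cell development, and its 3 probe sets gave no difference past the threshold. The brightest (1426297_PM_at) read 3.33, 3.00 and 3.45 in KO with LPS against 3.33, 3.26 and 3.79 in WT with LPS, and 3.40, 3.69 and 4.03 in unstimulated KO against 3.34, 3.56 and 3.91 in unstimulated WT. The genotypes overlapped in both stimulations, and the averaged difference was −0.05 ± 0.14 (log2, KO minus WT, 95% interval −0.36 to 0.27, limma adjusted p = 0.914), or 0.02 without KO LPS array 2. The second probe set (1427764_PM_a_at) was the other member whose KO LPS arrays lay below all unstimulated KO arrays, at 2.86, 2.71 and 3.05 against 3.07, 3.08 and 3.18. The Tcf3 LPS minus unstimulated differences in KO were −0.45, −0.24 and −0.16 over the 3 probe sets, given without a test, against −0.14, −0.10 and −0.37 in WT, each with a limma adjusted p of at least 0.984. The KO differences were −0.32, −0.16 and −0.07 without KO LPS array 2. The third probe set (1452542_PM_x_at) read 2.51, 2.17 and 2.39 in KO with LPS against 2.41, 2.28 and 2.16 in WT with LPS. Unstimulated it read 2.40, 2.78 and 2.39 in KO against 2.79, 2.32 and 2.85 in WT.

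Tcf4 encodes E2-2, the E protein of plasmacytoid DCs, and the arrays of its brightest probe set overlapped between all groups, with 1 array lying apart. This probe set (1424089_PM_a_at) read 4.82, 3.86 and 4.94 in KO with LPS against 4.77, 4.92 and 4.68 in WT with LPS, and 4.84, 4.90 and 5.11 in unstimulated KO against 4.94, 5.11 and 4.88 in unstimulated WT. The 3.86 of KO LPS array 2 was the lowest of the 12 and the others lay within 4.68 to 5.11. The difference after LPS was −0.25 ± 0.22 (KO minus WT, limma adjusted p = 0.654) with that array and 0.09 without it. The LPS difference in KO was −0.41 with it and −0.07 without it. On the same array another Tcf4 probe set (1434148_PM_at) gave the highest of its 12 values, 4.27. The third (1434149_PM_at) read 3.19 there, near its lowest value of 3.12, so 1434148_PM_at disagreed with the other probe sets of the gene on that array. The readings of 1434148_PM_at were 3.75, 4.27 and 3.85 in KO with LPS against 3.41, 3.83 and 3.87 in WT with LPS. Unstimulated they were 4.06, 3.71 and 4.13 in KO against 3.85, 3.84 and 3.94 in WT. Its difference after LPS was 0.25 ± 0.17 (KO minus WT, limma adjusted p = 0.518) with that array and 0.10 without it. The third read 3.38, 3.19 and 3.63 in KO with LPS against 3.12, 3.62 and 3.37 in WT with LPS. Unstimulated it read 3.66, 3.34 and 3.74 in KO against 3.51, 3.44 and 3.57 in WT. Summed plasmacytoid DC markers were 204 to 217 in KO with LPS against 195 to 211 in WT with LPS and 179 to 202 in unstimulated KO against 159 to 184 in unstimulated WT. KO LPS array 2 was the 204. In the averaged comparison 1 of 7 markers was higher in KO past the threshold and 0 were lower.

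Tcf12 encodes HEB, the E protein partner studied most in T cell development, and its 2 probe sets did not move alike. The brighter (1427670_PM_a_at) read 5.64, 6.00 and 5.83 in KO with LPS against 5.61, 5.72 and 5.24 in WT with LPS, and 5.40, 5.52 and 5.74 in unstimulated KO against 5.52, 5.47 and 5.40 in unstimulated WT. The genotypes overlapped in both stimulations, and the averaged difference was 0.20 ± 0.10 (limma adjusted p = 0.367). The dimmer (1421908_PM_a_at) read 3.81, 3.75 and 3.82 in KO with LPS against 3.94, 4.14 and 3.95 in WT with LPS, and 3.68, 3.69 and 4.11 in unstimulated KO against 3.80, 3.46 and 3.26 in unstimulated WT. Its WT arrays with LPS lay above both the KO arrays with LPS and the unstimulated WT arrays, and they are shared by both differences. The differences were −0.22 ± 0.15 after LPS (KO minus WT, adjusted p = 0.549) and 0.50 ± 0.15 for LPS in WT (adjusted p = 0.653), and the difference of the LPS effects, KO minus WT, was −0.53 ± 0.21 (adjusted p = 0.957). None passed over all probe sets.

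**Figure D3:**
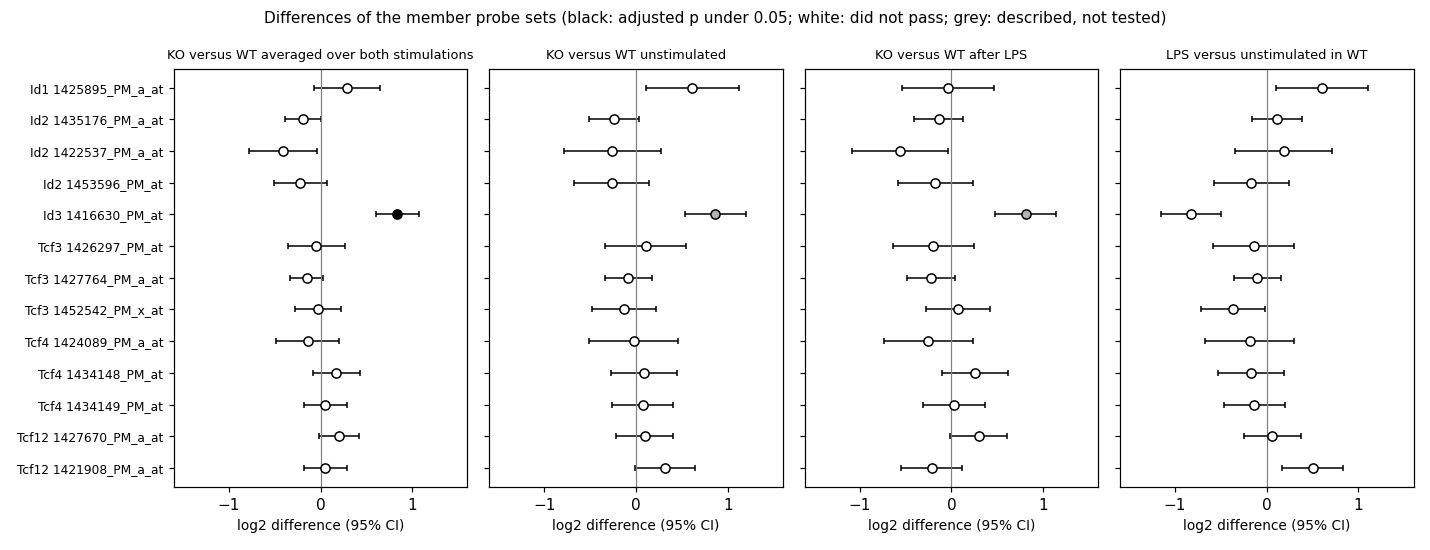
Log2 differences with 95% intervals for the 13 probe sets in 4 comparisons, from the model over 28898 probe sets. The Id3 interval of 0.60 to 1.07 for KO minus WT averaged over both stimulations is the one past the threshold, drawn black. White points did not pass. Grey points were not tested, and their intervals are a description only, since the choice of Id3 used some of the same arrays.

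Counted over the family, KO minus WT unstimulated gave 0 of 12 tested probe sets past the threshold, where 0.163% of all probe sets passed, and 1 (Id1) at an unadjusted p under 0.05, where 8.49% of all did. After LPS it gave 0 of 12, against 0.322% of all, and 1 (Id2) unadjusted, against 13.9%. LPS in WT gave 0 of 13 by limma, and 4 unadjusted (Id1, Id3, Tcf3 and Tcf12), against 4.93% of all. The difference between the LPS effects gave 0 of 12, against 0% of all, and 1 (Tcf12) unadjusted, against 3.95%. The medians over the 13 probe sets were −0.03 for the averaged genotype comparison and −0.14 for LPS in WT, against −0.02 and 0.00 over all probe sets.

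Counts of members whose groups did not overlap are given beside the share of all probe sets. Unstimulated KO and WT did not overlap for 2 of 13 (Id1 and Id3, higher in KO), against 16.5% of all probe sets. With LPS they did not overlap for 2 of 13 (Id3 higher and Tcf12 lower in KO), against 17.1%. LPS and unstimulated WT did not overlap for 3 of 13 (Id1 and Tcf12 higher and Id3 lower with LPS), against 11.7%. For KO it was 2 of 13 (Id3 and Tcf3, lower with LPS), against 13.5%, a comparison that the choice of Id3 used. The E protein genes as a set stayed within −0.15 to 0.20 in the averaged genotype comparison, over 8 probe sets with adjusted p from 0.367 to 0.935.

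By the Pearson correlation over the 12 arrays, which fall into 4 groups and so share group differences, the genes most like Id3 among 8547 above the median gene were Pltp (0.910), which encodes a phospholipid transfer protein, Scarb2 (0.905), which encodes a lysosomal membrane protein, and Taf4 (0.896), a subunit of a general transcription factor. These were 0.910, 0.913 and 0.921 without KO LPS array 2. For Id2 they were Spic (0.934), Cxcl9 (0.903) and Lcp2 (0.878). For Id1 they were Foxm1 (0.868), Alox12e (0.861) and Uxs1 (0.861), for Tcf3 Neurl4 (0.903), Ston2 (0.899) and Dvl1 (0.867), and for Tcf12 Pgam5 (0.942), Plekha2 (0.916) and Fabp4 (0.885). For Tcf4 they were Atp13a3 (0.967), Stub1 (0.966) and Ctsh (0.964), which fell to 0.742, 0.766 and 0.709 without KO LPS array 2.

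Of the genes upstream of Id transcription, the TGF-beta receptor gene Tgfbr1 and the SMAD corepressor gene Ski were higher in KO. Tgfbr1 encodes the type I receptor that passes the ligand's signal to SMADs. Tgfbr1 read 6.95, 7.66 and 7.28 in KO with LPS against 6.23, 6.16 and 6.01 in WT with LPS, and 7.08, 7.54 and 7.36 in unstimulated KO against 6.51, 6.55 and 6.62 in unstimulated WT. The averaged difference was 0.97 ± 0.12 (log2, KO minus WT, limma adjusted p = 0.00193), in a comparison where 2.36% of genes passed at 1 probe set per gene, 1.54% higher and 0.819% lower. It was 1 of 16 measured BMP and TGF-beta receptor genes past the threshold, with 0 lower; Tgfbr2 (0.17, adjusted p = 0.488) and Bmpr2 (0.51, adjusted p = 0.110) did not pass. None of 13 ligand genes passed by limma (0 higher and 0 lower, 1 at an unadjusted p under 0.05), with Tgfb1 at 0.19 (adjusted p = 0.565). Among 21 SMAD genes and their inhibitors 1 was higher, Ski, at 0.66 ± 0.13 (adjusted p = 0.0230), while Smad4 (0.19, adjusted p = 0.323) did not pass. The list medians were 0.01, −0.02 and 0.14 for receptors, ligands and SMADs, against −0.02 over all genes.

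EGR and AP-1 genes, early response factors that include regulators of Id3 in lymphocytes, had 1 of 16 higher and 1 lower in the averaged comparison. Egr2 was lower in KO, with means of 7.08 in KO against 7.60 in WT with LPS and 6.97 in KO against 7.71 in WT unstimulated. The Egr2 arrays overlapped with LPS and did not overlap unstimulated, and the difference was −0.63 ± 0.11 (limma adjusted p = 0.0165). Fosl2 was higher at 0.61 ± 0.11 (adjusted p = 0.0146), and Egr1 (0.22, adjusted p = 0.304) did not pass.

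Other helix-loop-helix genes mostly gave no call. Of 28 other Id and class II genes 0 were higher and 0 lower by limma (1 at an unadjusted p under 0.05, median −0.03), and 25 of the 28 lay below the median gene, so little could be seen of them. Of 31 Hes, Hey, Bhlhe and Myc family genes 1 was higher, Mxd4, a MAX partner that opposes MYC, at 0.88 ± 0.14 (limma adjusted p = 0.00919, median of the list 0.00); Bhlhe40 (−0.12, adjusted p = 0.552) did not pass. Of 23 E protein cofactor and Id turnover genes 1 was higher, Lmo2, an adaptor of E protein complexes, at 0.66 ± 0.15 (adjusted p = 0.0372, median −0.03). Without KO LPS array 2 the Hes, Hey, Bhlhe and Myc list had 3 higher genes (Mxd4, Myc and Tfec) and the receptor list gained Rgmb as 1 lower gene.

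Downstream, the lists drawn up for genes tied to these factors held 1 of 22, 2 of 19 and 2 of 26 calls in the averaged comparison, against 2.36% of genes. The lists include general DC genes such as Itgax, and some genes, such as Irf8, are in more than 1 list. Their counts are therefore no measure of Id or E protein activity. Of 22 genes listed for E2-2 and plasmacytoid DCs 1 was higher, Cox6a2 (0.36 ± 0.08, limma adjusted p = 0.0353), and 0 were lower, while Irf8 (0.28, adjusted p = 0.292) did not pass. Of 19 conventional DC genes listed for Id2, 2 were lower in KO and 0 higher: Xcr1, the chemokine receptor of cross-presenting DCs (−0.54 ± 0.11, adjusted p = 0.0247), and Wdfy4, needed for cross-presentation (−0.40 ± 0.07, adjusted p = 0.0144). Cd24a, the brightest gene of this list (0.70, adjusted p = 0.184), and Itgax (0.16, adjusted p = 0.547) did not pass. Of 26 E protein targets of lymphocytes 1 was higher and 1 lower. Gfi1, a transcriptional repressor also used by granulocyte precursors, was higher at 1.46 ± 0.18 (adjusted p = 0.00193), beside the neutrophil markers given above, whose part was not tested. Cd4 was lower at −0.64 ± 0.12 (adjusted p = 0.0191), and Cdkn1b (0.48, adjusted p = 0.0504) did not pass. The medians were 0.03, −0.14 and −0.01, against −0.02 over all genes. Without KO LPS array 2 the E2-2 list had 2 higher and 1 lower (Irf8, Tlr7 and Cox6a2), the Id2 list 1 higher and 2 lower (Irf8, Xcr1 and Wdfy4) and the lymphocyte list 2 higher and 2 lower (Gfi1, Cdkn1b, Cd4 and Cd8a).

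**Figure D4:**
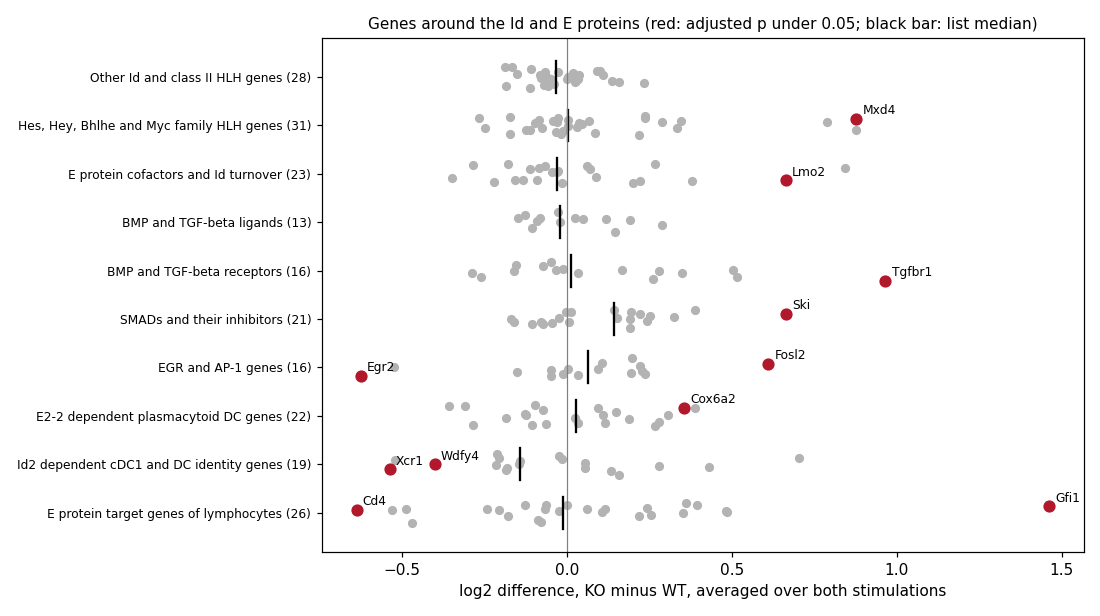
Averaged KO minus WT log2 difference of every measured gene in the 10 lists, 1 point per gene and 1 row per list, with the list median as a black bar. Genes past an adjusted p of 0.05 are red and named, the rest grey, with Gfi1 at 1.46, Tgfbr1 at 0.97 and Mxd4 at 0.88 farthest to the right.

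In the other comparisons these genes of the lists passed. KO minus WT after LPS gave Tgfbr1 (1.16 ± 0.17, limma adjusted p = 0.0208), Mxd4 (1.13 ± 0.20, adjusted p = 0.0391) and Gfi1 (1.36 ± 0.25, adjusted p = 0.0481), where 0.374% of genes passed; without KO LPS array 2 Tgfbr1 and Gfi1 passed, Mxd4 did not, and Egr2 was 1 lower gene. Unstimulated cells gave Gfi1 (1.56 ± 0.25, adjusted p = 0.0318), where 0.222% of genes passed; without that array Tgfbr1, Ski, Egr2 and Cd4 passed as well. LPS in WT gave 0 genes of the 10 lists by limma (0 to 4 per list at an unadjusted p under 0.05), where 0.123% of genes passed, and LPS in KO gave Myc (1.36 ± 0.23, adjusted p = 0.0277), where 0.357% did. Without the same array Myc, Csf2rb, Cxcr5 and Cdkn1a passed for LPS in WT, and Myc, Irf4, Csf2rb, Cxcr5 and Cdkn1a for LPS in KO.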

How the data were processed

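The deposited values are log2 signals that the authors normalised with RMA, per the submitters' processing notes; its version is not stated in the sources used here. RNA was purified on columns and amplified with oligo(dT) and random primers, per the labels' protocols. Of 45141 probe sets, 104 controls, 551 with several gene symbols and 15588 with none in GEO's platform annotation were left out. Of the 28898 kept, 28689 matched a RefSeq gene (GRCm38.p6) by Entrez number, and 7180 of 17097 genes had more than 1 probe set, of which the one with the highest mean stood for the gene in list counts.

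A linear model with 4 group means over all 12 arrays was fitted with limma 3.58.1 in R 4.3.3 (lmFit and eBayes; 8 residual degrees of freedom, prior 4.38), and p-values were Benjamini-Hochberg adjusted over all single-symbol probe sets within a comparison; an adjusted p under 0.05 passed. Errors after ± are moderated SEs unless given as SD. Id3 was tested in the averaged genotype comparison, whose estimate is uncorrelated with that of LPS in KO in this balanced design, and for LPS in WT. Every member probe set was named; of each list up to 3 genes past the threshold with the largest change and up to 2 of the brightest that did not pass were named. The members and lists were chosen with earlier results of these data known.

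Each sample has its own mouse number in the labels. After removing group means, same-numbered arrays correlated at 0.244, 0.247 and 0.364 in KO and 0.334, 0.206 and 0.357 in WT, against −0.268 to −0.048 for different numbers. Deviations within a group cancel out, so positive values for same numbers push those for different numbers down. Same-numbered arrays were taken as pairs within a genotype from these values, a pairing that the labels do not state (random block with statmod 1.5.0, consensus correlation 0.162). The model was tested on simulated data: of probe sets shifted by 0.5 and 1, it recovered 54% and 92% in the averaged genotype comparison, 22% and 78% in the unstimulated one and 12% and 78% in the one after LPS. Arrays give no read depth, so their number limits the precision.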

Additional observations from a re-analysis of the deposited data

How the results depend on the processing

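Over 23 alternative settings, 1263 of 1314 tested log2 differences of the members kept direction and side of the threshold, 47 turned sign, 0 lost a call and 4 gained one. Of 351 values given without a test 327 kept their sign and 24 turned it. Id3, LPS in WT, gained the call with arrayWeights (adjusted p = 0.0342), with the replicate block within genotype as random or fixed (0.0307 and 0.0470) and without KO LPS array 2, which gave 1 member probe set past the threshold each time, against 0. The block changed no other member call, and the fixed block within genotype gives no value for a genotype comparison.

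Counts of all probe sets moved more. With arrayWeights they were 1136 averaged, 202 unstimulated, 79 for LPS in WT and 155 for LPS in KO, against 614, 47, 37 and 87. With the replicate block over all arrays they were 1267, 222, 80 and 135, and 373 after LPS against 93. The random block within genotype gave 406 averaged, 74 for LPS in WT and 154 in KO, and the fixed block 106 in WT and 198 in KO. At 1 probe set per gene LPS in WT gave 20. Leaving out 1 array gave 260 (without WT LPS array 3) to 1243 (KO LPS array 3) averaged, 6 (KO unstimulated array 1) to 246 (KO LPS array 2) unstimulated, 2 (WT LPS array 2) to 511 (KO LPS array 3) after LPS, 11 (WT LPS array 3) to 104 (KO LPS array 2) for LPS in WT, 42 (KO unstimulated array 2) to 134 (KO LPS array 2) in KO, and 0 to 0 for the difference of LPS effects (0 in all). Member calls were then 1 to 1 averaged and 0 to 1 for LPS in WT.

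The sign turned for differences that were not past the threshold. The mean of a gene's probe sets gave, for Tcf4, 0.028 averaged, 0.044 unstimulated and 0.011 after LPS, for Tcf3 −0.038 unstimulated, and for the difference of LPS effects −0.036 for Id2 and −0.16 for Tcf12. Quantile normalisation gave 0.0029 for Tcf4 1434149_PM_at (difference of LPS effects). ArrayWeights gave 0.18 for Id1 after LPS, and 0.044 and 0.022 for Tcf4 1424089_PM_a_at and 1434149_PM_at (difference of LPS effects). The gene means average probe sets whose differences had opposite signs, and were set against the brightest probe set alone. The cause of the other turns was not tested.

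Leaving out 1 array turned the sign of 19 of 62 tested member differences, given as lowest to highest value. Averaged, these were −0.13 to 0.037 (Tcf3 1426297_PM_at), −0.11 to 0.021 (Tcf3 1452542_PM_x_at), −0.24 to 0.033 (Tcf4 1424089_PM_a_at), −0.011 to 0.11 (Tcf4 1434149_PM_at) and −0.021 to 0.13 (Tcf12 1421908_PM_a_at). Unstimulated, they were −0.056 to 0.26 (Tcf3 1426297_PM_at), −0.11 to 0.039 (Tcf4 1424089_PM_a_at), −0.0059 to 0.19 (Tcf4 1434149_PM_at) and −0.00044 to 0.17 (Tcf12 1427670_PM_a_at). After LPS, they were −0.18 to 0.23 (Id1), −0.29 to 0.023 (Id2 1453596_PM_at), −6.4e-05 to 0.17 (Tcf3 1452542_PM_x_at), −0.45 to 0.093 (Tcf4 1424089_PM_a_at) and −0.095 to 0.15 (Tcf4 1434149_PM_at). For LPS in WT they were −0.31 to 0.012 (Tcf3 1426297_PM_at) and −0.036 to 0.20 (Tcf12 1427670_PM_a_at), and for the difference of LPS effects −0.021 to 0.29 (Id2 1453596_PM_at), −0.42 to 0.12 (Tcf4 1424089_PM_a_at) and −0.17 to 0.081 (Tcf4 1434149_PM_at). Of 16 differences without a test 6 turned: for LPS in KO −0.19 to 0.22 (Id1), −0.39 to 0.18 (Id2 1422537_PM_a_at), −0.19 to 0.12 (Id2 1453596_PM_at), −0.17 to 0.094 (Tcf4 1434148_PM_at) and −0.11 to 0.11 (Tcf12 1421908_PM_a_at), and for the difference of LPS effects −0.19 to 0.066 (Id3).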
